A study of Mus musculus with 8 samples.

Results

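Embryos with knockdown (KD) of Smarca5, also called Snf2h, were followed from the morula to the blastocyst through their polyadenylated RNA. The members are the 4 KD libraries of 8 in the series, chosen by their labels: 2 of KD morulae and 2 of KD blastocysts, each from a pool of 20 mouse embryos. The other 4 libraries, 2 per stage, come from a group labelled NC and serve as the reference for the same stage step. The labels give no strain, embryo sex or further treatment. The method of knockdown, and the meaning of NC, are not given in the sources used here. Embryonic days 3.75 and 4.25 are named for the series without a link to a stage. Morula and blastocyst values were deposited in 2 separately scaled tables, so stage, table and any handling that went with a table cannot be told apart. The tables were joined on 12875 genes and brought to a common scale before any level was set across them.

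SMARCA5 is the ATPase of several ISWI complexes, which slide and space nucleosomes. In the morula all cells are still alike in potency, and the step to the blastocyst sets up the trophectoderm, an outer epithelium that pumps fluid and later forms the placenta, around an inner cell mass. The inner cell mass then divides into epiblast, the source of the fetus, and primitive endoderm, which lines the cavity and lays down basement membrane. Bulk RNA from pools cannot tell fewer cells of a type from less RNA per cell, and this holds for every lineage result given here.

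The scaling factors of the 4 KD columns were 0.935 and 0.928 in morulae and 1.09 and 1.08 in blastocysts. On the log2(value + 1) scale KD morulae correlated across genes at 0.968 with each other, and KD blastocysts at 0.977. KD morula 1 was nearer to both KD blastocysts (0.942 and 0.924) than KD morula 2 (0.922 and 0.899). The summed level of 8 trophectoderm markers was 31280 and 28770 in KD morulae and 92710 and 106400 in KD blastocysts, with no overlap. The sum of 7 epiblast markers was 40110 and 38060 in KD morulae and 27520 and 28970 in KD blastocysts, lower in both. Most of it was Pou5f1 and Nanog, which were lower in both KD blastocysts, as was Klf2. Sox2 (462 and 421, then 1161 and 1349) and Gdf3 (261 and 160, then 285 and 482) were higher in both. The sum of 7 primitive endoderm markers was 13360 and 11790 and then 11000 and 13870, which overlap. Most of that sum was Gata6, which was lower in both KD blastocysts, while Pdgfra and Sox17 were higher in both. Markers of other cells were low: the sum of the 4 cumulus and granulosa markers found in the tables, of 7 listed, was 341 and 353 in KD morulae and 163 and 110 in KD blastocysts. The sum of 6 blood markers was 92.2 in KD blastocyst 2 and 14.3 to 29.0 in the other KD libraries, with the globin gene Hbb-bs at 0 in those 3. Most of the cumulus and granulosa sum was Amhr2 and Foxl2. Amhr2 was 217.5 and 261 in KD morulae and 92.6 and 67.2 in KD blastocysts, and 296 and 350.5 in NC morulae. Foxl2 was 116 and 83.0 in KD morulae and 58.6 and 39.5 in KD blastocysts, and 41.3 and 31.2 in NC morulae. Amh was at or under 9.39 in every KD library and Inha at 0 in 3 of 4. Ovgp1 and Pax8, the oviduct markers found of 4 listed, summed to 12.9 to 16.1. Of the tested genes in wider marker lists, 1 of 5 for cumulus and granulosa fell, 0 of 1 for blood was called, and 2 of 4 for oviduct and uterus, Wfdc2 and the endoderm gene Sox17, rose. The part of these cells in the results was not tested.

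The targeted gene was examined first. Smarca5 (ENSMUSG00000031715) was 535 and 507 in KD morulae and 834 and 792 in KD blastocysts, against 10300.2 and 10606 in NC morulae and 6443 and 7645 in NC blastocysts. Every KD library lay far below every NC library at either stage. Within KD the transcript rose 1.56-fold from morula to blastocyst (log2 change 0.64, SE 0.15, adjusted p = 0.0230), and within NC it fell (-0.57, adjusted p = 0.0172). The difference between these stage changes was 1.21 and did not pass the test over all genes (adjusted p = 0.202).

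Of 15 tested ISWI genes, 1 rose in KD as blastocysts formed, which was Smarca5 itself, and 3 fell (median log2 change -0.18). The falls are 20% of the list, beside 13.3% of all tested genes, and the rise 6.67%, beside 14.4%. Those that fell were the histone chaperone subunit Rbbp4, from 5627 and 5386 to 3782 and 3741, the NoRC subunit Baz2a (-0.50) and the histone-fold subunit Pole3 (-0.52). In NC the changes of these 3 genes were -0.55, -0.58 and -0.61. Among the others, which did not pass in KD, the change ran from -0.71 for Bend3 (adjusted p = 0.0687) to 0.30 for Baz2b (adjusted p = 0.349). In NC 0 of these 15 genes rose and 6 fell. Smarca1, the second ISWI ATPase, was under the minimum. Bptf, the large NURF subunit, was 4376 and 4138 in KD morulae and 4949.6 and 4913 in KD blastocysts (0.21, adjusted p = 0.151). Without KD blastocyst 2 none of the 15 passed, and with the columns as deposited, without a common scale, the list median was 0.03.

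The morula to blastocyst step changed many transcripts in KD embryos. In KD, 1860 of 12875 tested genes were higher in blastocysts and 1711 were lower (limma, Benjamini-Hochberg adjusted p under 0.05), which is 14.4% and 13.3% of the genes, 27.7% in all. Of the called genes, 1010 rose and 748 fell at least 2-fold. In NC the same fit called 1524 higher and 1485 lower, 11.8% and 11.5% of genes. These counts rest on few libraries: the KD count of 3571 became 864 without KD blastocyst 2, 1940 without KD blastocyst 1 and 2145 without KD morula 2, and 1166 without the mean-variance trend. With the columns as deposited, without the common scale, the median of all genes moved up by 0.22 and 2952 genes were called higher against 1015 lower. The split between rises and falls moved with the scaling, and directions are given relative to the median gene.

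Genes that rose or fell in NC mostly did so in KD. Of the 1524 genes called higher in NC blastocysts, 1176 were also called higher in KD, which is 77.2% of the NC list and 63.2% of the KD list. Of the 1485 called lower in NC, 1060 were also called lower in KD, 71.4% of the NC list and 62% of the KD list. The KD change had the NC direction for 98.6% and 98.7% of the NC calls. KD libraries of the stages did not overlap in the NC direction for 94.4% and 94.1% of them, beside 68.3% of all genes without overlap in either direction. Only Smarca5 and the homeobox gene Cphx1 were called in opposite directions. Across all genes the KD and NC changes correlated at 0.775 (Pearson) and 0.768 (Spearman), a description over genes that share the 2 tables and their scaling. NC and KD changes share no library.

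**Figure D1:**
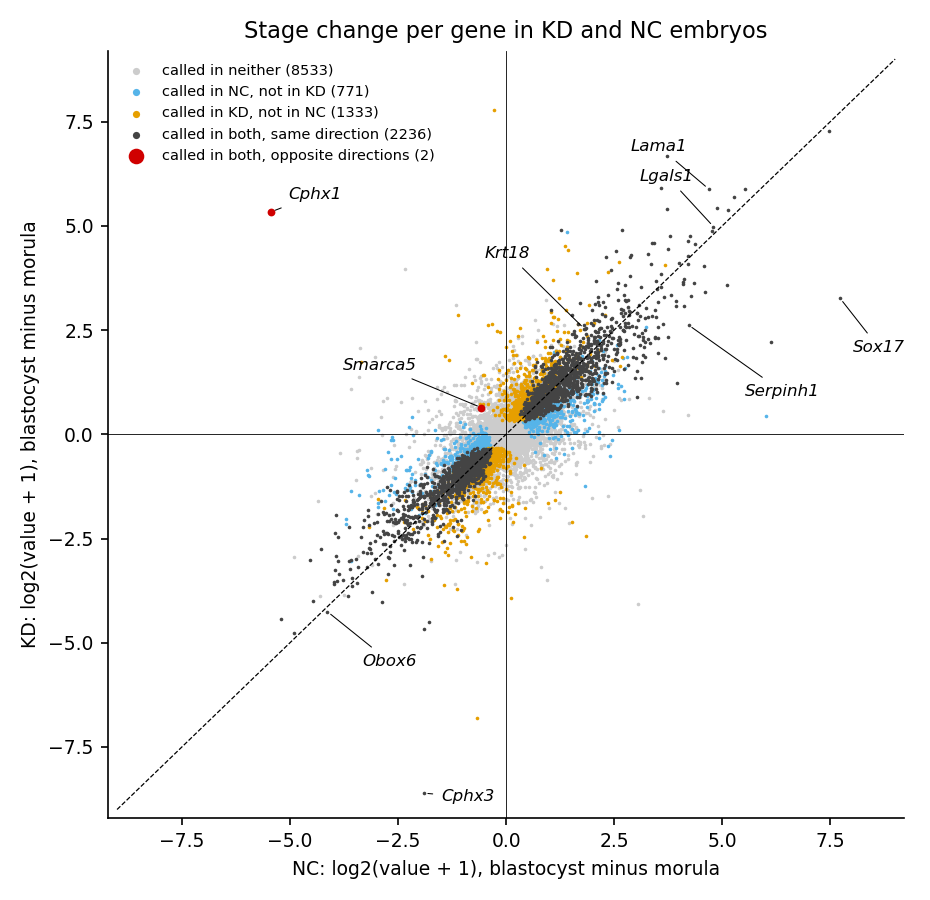
Each point is 1 of 12875 genes, with its log2(value + 1) change from morula to blastocyst in NC on the x axis and in KD on the y axis, colored by where it was called (adjusted p under 0.05). The 2236 genes called in both with the same direction lie along the dashed line of equal change, and 2 genes, Smarca5 and Cphx1, were called in opposite directions.

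The sizes of the changes were set side by side. Over the NC calls, the median change was 1.21 in NC and 1.06 in KD for genes that rose, and -0.958 and -0.827 for genes that fell. Over the KD calls it was 1.07 in KD and 0.936 in NC, and -0.894 and -0.823. Each list was chosen in the group that shows the larger median, so these pairs do not show a weaker change in either group. Genes called higher in NC stood at -0.434 and -0.581 in KD morulae and at 0.475 and 0.600 in KD blastocysts, as medians of the log2 level relative to each gene's mean over 8 libraries. KD morula 1 and KD blastocyst 1 were the closer pair of the 2 stages in both gene sets. Morula 1 was also nearer to the blastocysts than morula 2 in NC (-0.435 and -0.724).

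**Figure D2:**
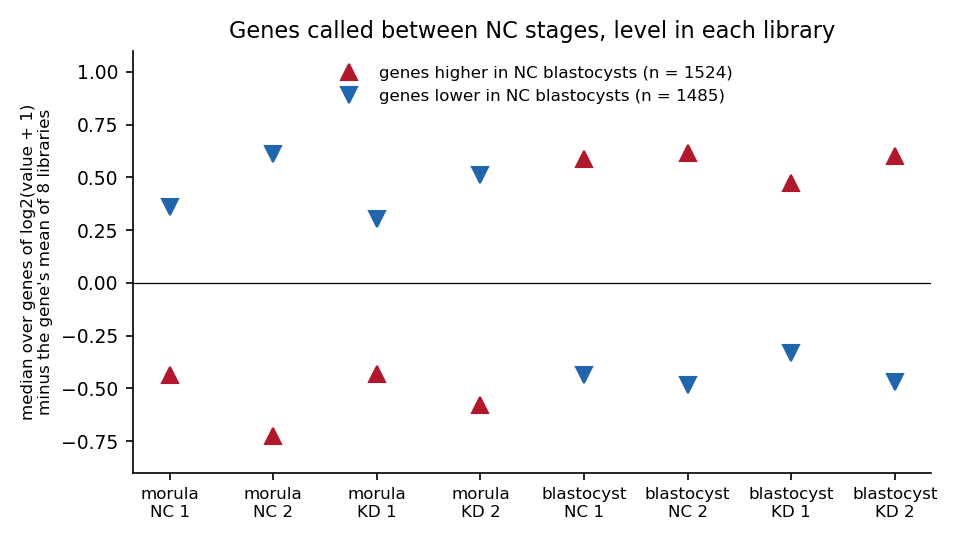
For the genes called between NC stages, triangles give the median over genes of log2(value + 1) minus the gene's mean over 8 libraries, on the y axis, in each library on the x axis. In every KD library the 1524 genes higher in NC blastocysts and the 1485 lower ones sit on the same side of 0 as in the NC libraries of that stage.

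Trophectoderm transcription factors rose together in KD. Of 20 tested, 14 rose and 1 fell (median 1.16 in KD and 0.96 in NC, beside 0.00 over all genes, of which 14.4% rose). Cdx2, the homeobox factor that specifies trophectoderm, was 5148 and 3857 in KD morulae and 10148 and 10861 in KD blastocysts (log2 change 1.24, SE 0.15, adjusted p = 0.00250). Gata3, which acts beside it, went from 5494 and 3842 to 9575 and 9892 (1.08). Neither gene's stages overlapped. Factors of later trophoblast rose from a lower base: Eomes, needed in trophoblast stem cells, from 96.1 and 145 to 1207 and 3345 (4.08, adjusted p = 0.00218). Gata2 rose from 123 and 15.1 to 1453 and 2572, Tfap2a from 286 and 134 to 1782 and 2678, and Id2, an inhibitor of bHLH factors, from 173 and 257 to 1791 and 3343. The KD blastocysts differed from each other here: KD blastocyst 2 was higher than KD blastocyst 1 for each of these 4 genes. Klf6 rose by 1.32 and Elf5, a low-level trophoblast stem cell factor, from 9.59 and 2.36 to 40.5 and 81.7. The member that fell was Hand1, a factor of trophoblast giant cells, from 2533 and 3695 to 932 and 490.4 (-2.18; -3.16 in NC). Tfap2c, already high in morulae, was 5272 and 5739 and then 4851 and 4310.2 and did not pass (adjusted p = 0.116). Without KD blastocyst 2, 7 rose and 1 fell, and without the mean-variance trend 6 and 0.

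Structural and surface genes of trophoblast rose as well. Of 27 tested, 17 rose and 3 fell in KD (63.0% and 11.1%), with a median of 1.50 (1.26 in NC). Of all tested genes 14.4% rose and 13.3% fell. Keratins 8 and 18 pair into the filaments of this first epithelium. Krt8 was 10328 and 9829.5 in KD morulae and 39860.2 and 45847 in KD blastocysts (log2 change 2.08, SE 0.11, adjusted p = 3.92e-04), and Krt18 went from 4799.9 and 5212 to 26653 and 31399 (log2 change 2.53, SE 0.12, adjusted p = 3.84e-04). In NC the rises were 1.47 and 1.81, from 14104 and 11911 and from 6874 and 6587 in morulae. The difference of the stage changes did not pass for either gene (adjusted p = 0.842 and 0.666). Lcp1, an actin-bundling plastin, rose from 773 and 805 to 6353 and 6662 (3.04, adjusted p = 1.51e-04) and the tetraspanin Tspan8 from 73.2 and 104 to 1887 and 2998 (4.76). The counts were 14 and 1 without KD blastocyst 2, and without the trend 12 and 1.

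The starts of Krt18, Krt8 and the desmosome gene Dsp are shown because these 3 epithelial genes rose together in KD. Sequences are from RefSeq on GRCm38.p6, the patch release of mm10, 250 bases before the RefSeq start and on the gene's strand. The GENCODE M21 starts of Krt8 (102004482) and Krt18 (102028180) lie inside the windows shown, so part of each window is within the gene by that annotation. Capitals mark the match. It is GCCNNNGGC, bound by AP-2 factors, in Krt18 and Dsp. It is GATAAG, bound by GATA factors, in Krt8. The motif shown was picked separately for each gene, so a match in all 3 carries no weight. Both strands were searched, and motifs were counted apart whether or not they overlap.
Krt18 (chr15:102027966-102028215, plus strand): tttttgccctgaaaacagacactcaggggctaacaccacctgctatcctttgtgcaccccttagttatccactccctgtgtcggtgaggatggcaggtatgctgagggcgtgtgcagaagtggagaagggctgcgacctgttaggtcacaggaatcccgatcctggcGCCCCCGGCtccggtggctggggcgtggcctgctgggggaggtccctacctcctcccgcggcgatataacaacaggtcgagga
Krt8 (chr15:102004343-102004592, minus strand): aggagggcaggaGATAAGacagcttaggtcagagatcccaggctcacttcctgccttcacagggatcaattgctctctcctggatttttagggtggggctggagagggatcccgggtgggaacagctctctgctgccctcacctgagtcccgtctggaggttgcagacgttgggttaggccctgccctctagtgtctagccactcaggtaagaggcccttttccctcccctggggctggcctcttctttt
Dsp (chr13:38151044-38151293, plus strand): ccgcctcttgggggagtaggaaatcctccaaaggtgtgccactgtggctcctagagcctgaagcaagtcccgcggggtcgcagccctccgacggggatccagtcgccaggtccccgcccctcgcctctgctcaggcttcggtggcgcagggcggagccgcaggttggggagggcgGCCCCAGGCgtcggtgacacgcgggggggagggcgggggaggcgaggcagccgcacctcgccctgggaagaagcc
In the table of 32851 promoters of 300 bases, 16.6% held GCCNNNGGC, 7.44% held GATAAG and 14.7% held GGAATG, bound by TEAD factors. Among the 12205 promoters matched to tested genes the shares were 25.2%, 5.14% and 11.9%. Promoters matched by symbol for 74.7% of tested genes, too few for a share over the called genes. A match describes letters, not binding.

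**Figure D3:**
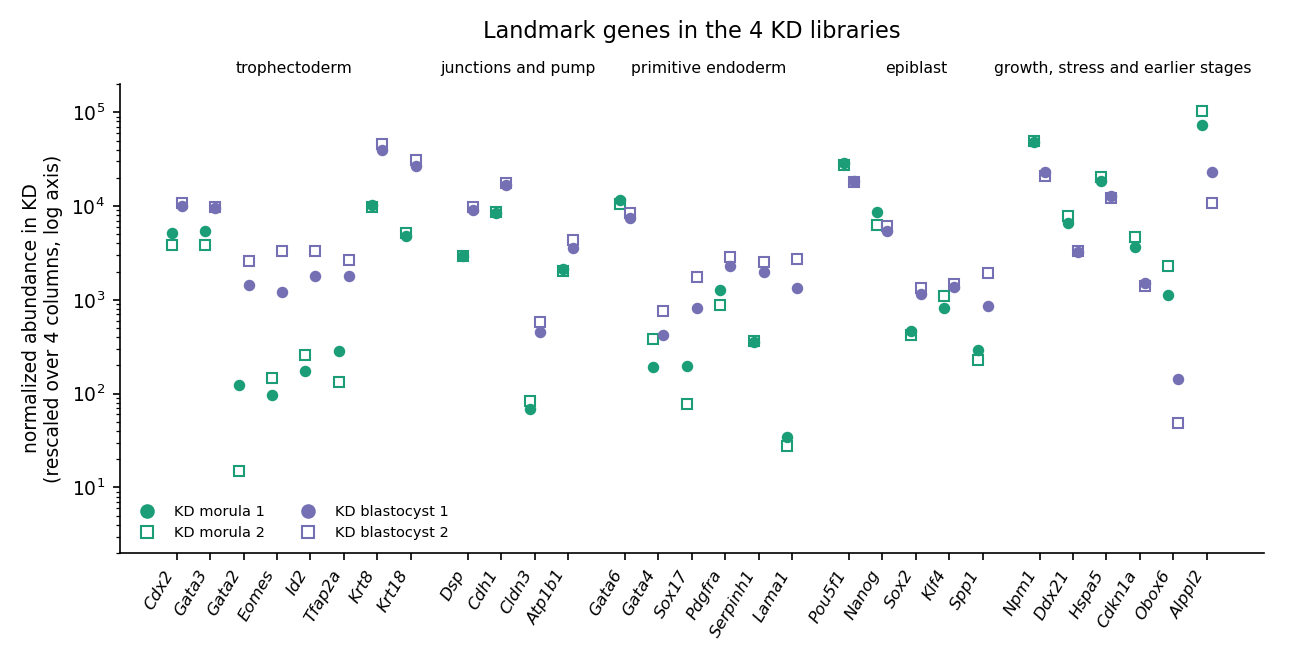
Normalized abundance (y axis, log scale, rescaled over the 4 KD columns) of 29 genes on the x axis, grouped by role, with 1 point per KD library. The 2 blastocyst points of Krt8 and Krt18 lie above both morula points, those of Npm1, Ddx21, Obox6 and Alppl2 below them, and the 4 points of Nanog lie between 5471 and 8599.

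Of 30 tested genes of tight junctions, desmosomes and polarity, 18 rose in KD, 0 fell and 12 did not pass. The rises are 60% of the list, beside 14.4% of all tested genes, and the median was 0.52 in KD and 0.52 in NC. Dsp, the desmosomal plaque protein, was 2939 and 2969.8 in KD morulae and 9087 and 9796 in KD blastocysts (log2 change 1.67, SE 0.10, adjusted p = 5.42e-04). In NC it went from 4813 and 4209 to 7775 and 8515 (0.85), and the difference of 0.82 did not pass (adjusted p = 0.560). KD was below NC in both morula libraries and above NC in both blastocyst libraries. E-cadherin, Cdh1, rose from 8403 and 8623 to 16739.9 and 17682 (1.02), and the claudin Cldn3 from 69.1 and 83.7 to 452 and 578 (2.73). Cldn4 rose by 0.42 (adjusted p = 0.0188; 0.19 in NC). Leaving out KD blastocyst 2 left 10 rises and 0 falls, and leaving out the trend 9 and 0.

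Fluid transport genes changed in both directions: 30% rose and 10% fell, beside 14.4% and 13.3% of all tested genes. Of 10 tested, 3 rose and 1 fell, with a list median of -0.06 that was 0.24 without KD blastocyst 1, 0.38 without KD morula 2 and 0.06 without KD morula 1. The sodium pump drives water into the cavity. Its beta subunit Atp1b1 rose from 2149 and 2013 to 3599 and 4349.7 (0.93). The scaffold Slc9a3r1 rose by 1.96 and the sodium, potassium and chloride cotransporter Slc12a2 fell by 1.04 on the log2 scale. The water channel Aqp3 was 4724 and 8951 in KD morulae and 6522 and 4954 in KD blastocysts, which overlap (-0.19, adjusted p = 0.649).

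Most tested primitive endoderm regulators rose in KD. Of 12 tested, 8 rose and 1 fell (66.7% and 8.33%, beside 14.4% and 13.3% of all tested genes). The list median was 0.94 (1.01 in NC). Pdgfra, the receptor that marks these cells, was 1261 and 872 in KD morulae and 2321 and 2852 in KD blastocysts (log2 change 1.29, SE 0.20, adjusted p = 0.00563). In NC it rose from 379.6 and 594 to 2438 and 2282 (2.31). Sox17 rose from 199 and 78.3 to 822 and 1774 in KD (3.26), and in NC it was 17.1 and 0 and then 648 and 1248. KD morulae thus held more of both transcripts than NC morulae, and KD blastocysts overlapped NC blastocysts for both. The difference of stage change was -1.02 for Pdgfra and -4.46 for Sox17, and neither passed (adjusted p = 0.900 and 0.912). Hnf4a, a nuclear receptor of endoderm, rose from 30.7 and 28.4 to 361 and 224, and the endocytic adaptor Dab2 from 4784 and 5106 to 7964 and 8331 (0.72). Gata6, the first factor of the lineage, fell from 11699 and 10472 to 7426 and 8434 (-0.48, adjusted p = 0.0216; -0.20 in NC). Gata4 was 194 and 379 and then 421 and 762 and did not pass (adjusted p = 0.0849). With KD blastocyst 2 left out 3 rose and 0 fell, and with no trend 1 and 0.

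Basement membrane genes rose in part. Of 21 tested genes of basement membrane and endodermal uptake, 11 rose and 2 fell (52.4% and 9.52%). Of all tested genes 14.4% rose and 13.3% fell. The list median was 0.75 (0.58 in NC). Lama1, the alpha chain of laminin 111, rose from 34.9 and 28 to 1337 and 2723 (log2 change 5.89, SE 0.36, adjusted p = 6.19e-04), Lamc1, its gamma chain, from 1953 and 2065 to 4599 and 6468, and Sparc, a secreted collagen-binding protein, from 225 and 261 to 2537 and 3122 (3.53). The collagen IV gene Col4a1 rose by 0.87 (adjusted p = 0.00621). Serpinh1, the collagen chaperone, rose from 359.5 and 369 to 1977 and 2551 in KD (2.62) and from 61.3 and 40.8 to 743 and 1213 in NC (4.22). Its difference of -1.60 did not pass (adjusted p = 0.842). Counts were 5 and 1 without KD blastocyst 2, and 4 and 0 without the trend.

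Pluripotency and epiblast genes showed no common direction in KD. Of 30 tested, 7 rose and 6 fell (23.3% and 20%, beside 14.4% and 13.3% of all tested genes). The list median was 0.00 (-0.15 in NC). Pou5f1, or OCT4, high in all cells of the morula and later kept in the inner cell mass, fell from 28913 and 27679 to 18412 and 18255 (log2 change -0.63, SE 0.09, adjusted p = 0.00490; -0.49 in NC). Nanog was 8599 and 6242 and then 5471 and 6062, lower in both KD blastocysts without passing (-0.35, adjusted p = 0.150). Sox2, which becomes restricted to the inner cell mass, rose from 462 and 421 to 1165 and 1349 (1.50; 1.95 in NC), and Spp1, a secreted inner cell mass protein, from 289 and 227 to 863 and 1918. The de novo methyltransferase Dnmt3b rose by 1.06. Klf4 was 828 and 1097 in KD morulae and 1385 and 1469 in KD blastocysts and rose by 0.58 (adjusted p = 0.0417), while in NC it was 2084 and 2574 and then 1484 and 2384 (-0.30). Every KD library lay below the NC libraries of its stage, and the difference of the stage change did not pass (adjusted p = 0.912). Fgf4, the ligand that drives primitive endoderm, was 108 and 336 and then 159.5 and 208, and Tdgf1, a Nodal coreceptor, 433 and 865 and then 798 and 1448. The stages of both genes overlapped in KD. Counts were 3 and 1 without KD blastocyst 2, and 3 and 0 without the trend.

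Signalling genes are read against all tested genes, of which 14.4% rose and 13.3% fell. Of 21 Hippo genes and targets, 2 rose and 4 fell in KD (9.52% and 19.1%), among them Amotl2, an angiomotin (0.59), the kinase Stk4 (-0.71), its cofactor Mob1b (-0.57) and Arhgap18 (-1.70). Of 27 genes of FGF, BMP and Nodal signalling, 5 rose and 1 fell (18.5% and 3.7%). Dusp6, a phosphatase induced by FGF signalling, rose from 95.9 and 93.1 to 445 and 954 (2.77), the receptor Fgfr2 from 1758 and 1873 to 2871 and 3604 (0.83) and the activin receptor Acvr1b by 0.97. Without KD blastocyst 2 the counts were 1 and 1 for Hippo and 3 and 0 for the signalling list.

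The 10 largest called rises in KD were taken among genes with a mean of at least 100 and no overlap between stages. Lgals1, a galectin (ENSMUSG00000068220), had the smallest p and went from 297 and 277 to 8570.3 and 9648 (log2 change 4.98, SE 0.13, adjusted p = 2.72e-05). Adh1, an alcohol dehydrogenase, was 127 and 8.61 in KD morulae and 4985 and 5896 in KD blastocysts. The kallikrein protease Klk7 went from 4.12 and 15.3 to 736 and 1189 and the peptide transporter Slc15a2 from 25.2 and 12.7 to 591 and 2095. Tceal9 (5.70), Nxf7 (5.41) and Bex3 (4.87) also rose, beside Lama1 and Gata2. Pi4ka, a phosphatidylinositol kinase gene, was listed at 0 in both KD morulae and at 419.8 and 112 in KD blastocysts, and in NC it was listed at 0 in 1 library of each stage (339.8 and 0 and then 0 and 229.5). In NC the changes were 4.80 for Lgals1, 7.48 for Adh1, 3.72 for Klk7, 5.54 for Slc15a2, 5.28 for Tceal9, 3.71 for Nxf7 and 4.76 for Bex3.

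The 10 largest called falls in KD were chosen by the same rule. Obox6, an oocyte-specific homeobox family member, went from 1128 and 2299.7 to 143 and 48.5 in KD (log2 change -4.25, SE 0.53, adjusted p = 0.00289). Foxe1, a forkhead factor, went from 621 and 1495 to 90.2 and 21.2, Cux2, a homeobox factor, from 1519 and 2584 to 201 and 136 and Dmrtb1, a DM-domain factor, from 925 and 1408 to 135 and 69.4. In each, KD morula 2 was higher than KD morula 1 and KD blastocyst 2 lower than KD blastocyst 1. Duxbl2 (-4.75), Ano9 (-4.01), Tmem56 (-3.99), Uncx (-3.58) and Lhfpl5 (-3.51) fell too, and in NC their changes were -4.90, -2.87, -4.46, -3.99 and -3.91. Cphx3 was 209 and 722 in KD morulae and listed at 0 in both KD blastocysts. Cphx3, Cphx1 and Duxbl2 have close copies in the genome that can share reads, and their values are uncertain.

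Gene families of earlier preimplantation stages fell in part, while oocyte and maternal transcripts had calls in both directions. Of the Obox, Cphx and Fthl17 list 41.2% fell and 11.8% rose, beside 13.3% and 14.4% of all tested genes. Of 17 tested genes of the Obox, Cphx and Fthl17 families and similar, 7 fell and 2 rose in KD (median -0.71; -0.76 in NC), and 6 and 0 without KD blastocyst 2. The alkaline phosphatase gene Alppl2 fell from 73649 and 102687 to 23163 and 10906 (-2.45) and the cytidine deaminase Apobec3 from 815 and 1189 to 233 and 146 (-2.41). Few two-cell-stage genes reached the minimum: of 22 listed, 4 were tested, and Sp110 (from 3344 and 6853 to 1015 and 436) and Tdpoz1 (-1.89) fell. Among 15 tested oocyte and maternal transcripts, 2 rose and 3 fell (13.3% and 20%), and the rises are near the share of all tested genes. The list median was below 0 but 0.12 with the columns as deposited and 0.01 with quantile normalization. No fall passed without KD blastocyst 2 (1 rise) or without KD morula 2 (2 rises). Ooep, of the subcortical maternal complex, rose from 133 and 124 to 464 and 544 and Zfp57, a protector of imprints, by 1.21. Padi6, of the oocyte lattice, fell from 251 and 211 to 86.5 and 40.7, and Gdf9, an oocyte growth factor, by 2.04 on the log2 scale. Dppa3, another maternal factor, was 12730.2 and 12247 and then 9836 and 11019 without passing.

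Ribosome biogenesis genes fell in KD blastocysts. Of 40 tested ribosome biogenesis genes 33 fell (82.5%, beside 13.3% of all tested genes) and 0 rose. The list median was -0.61 in KD and -0.51 in NC, where 22 fell. Npm1, the nucleolar chaperone, fell from 48248 and 48867 to 23110.1 and 21156 (log2 change -1.13, SE 0.10, adjusted p = 0.00107). The snoRNP protein Nhp2 fell from 7539 and 8439 to 3678 and 3209, the helicase Ddx21 from 6531 and 7786 to 3242 and 3321 and the assembly factor Bop1 from 2324 and 2551 to 1142 and 1094. The stages did not overlap for any of these 4. Counts of falls were 11 without KD blastocyst 2, 18 without KD blastocyst 1 and 7 without the trend. Cytosolic ribosomal protein genes were called in fewer cases: 14 of 79 fell (17.7%, near the 13.3% of all tested genes) and 0 rose. Their median was -0.23 (-0.14 in NC), and the genes that fell included Rplp2 (-0.43), Rpl37a (-0.43), Rps16 (-0.46) and Rpl23 (-0.39). None of the 79 passed without KD blastocyst 1, without KD blastocyst 2 or without the trend.

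Genes of energy supply rose in part, 35.5% of the oxidative phosphorylation list and 36.4% of the glycolysis list, beside 14.4% of all tested genes. Of 76 tested nuclear genes of oxidative phosphorylation 27 rose and 0 fell (median 0.29; 0.36 in NC), with Cox5b of complex IV from 1937 and 1889 to 3028 and 3259. Sdhc (0.86) and Ndufa7 (0.80) rose as well. The count was 1 without KD blastocyst 2 and 1 without the trend. Of 22 glycolysis genes 8 rose and 3 fell, and the falls, 13.6%, are near the 13.3% of all tested genes. Hexokinase 2, Hk2, which takes glucose into the pathway, rose from 1535 and 1774 to 7012 and 6609 (log2 change 2.04, SE 0.12, adjusted p = 5.42e-04), Tpi1 from 716 and 1037 to 2373 and 3067 and Gapdh from 10002 and 10523 to 16902 and 16922. Pgk1 rose by 0.79 (1.15 in NC). Glycolysis counts were 3 and 0 without KD blastocyst 2.

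Biosynthetic supply genes had calls in both directions, beside 13.3% of all tested genes that fell and 14.4% that rose. Of 23 genes of serine, one-carbon and amino acid supply 7 fell and 2 rose (30.4% and 8.70%). The list median was -0.04 in KD and 0.04 in NC. Psat1 and Phgdh, enzymes of serine synthesis, fell from 15502 and 15563 to 5989.9 and 5459 (-1.44) and from 6738 and 7551 to 3896 and 3341 (-0.98). The counts were 3 and 0 without KD blastocyst 2. Threonine dehydrogenase, Tdh, fell by 2.43 on the log2 scale and thymidylate synthase, Tyms, by 0.76. Cholesterol genes depended on which KD morula was used. With all libraries the shares of the list that rose (3.85%) and fell (11.5%) were under those of all tested genes, and the median was 0.14. Of 26 tested 1 rose and 3 fell, but 12 and 3 without KD morula 1 and 0 and 6 without KD morula 2, with list medians of 0.60 and -0.40. Nsdhl, a sterol dehydrogenase, was 291 and 111 in KD morulae and 472 and 576 in KD blastocysts. Lss (-0.77), Npc2 (-0.45) and Scap (-0.55) fell.

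Genes of the unfolded protein response and p53 targets fell in part. Among all tested genes 13.3% fell and 14.4% rose. Of 28 unfolded protein response genes 12 fell and 1 rose in KD (42.9% and 3.57%), with a median of -0.39 (-0.37 in NC). Dnajb9, an XBP1 target, fell from 1339.9 and 2467 to 457 and 431, Hyou1 from 5841 and 7102 to 3576 and 3285, Creld2 by 1.10 and Manf by 1.01 on the log2 scale. Of 33 p53 targets and apoptosis genes 13 fell and 3 rose (39.4% and 9.09%). Trp53 itself fell from 2352 and 2238 to 1113 and 1065 (log2 change -1.07, SE 0.12, adjusted p = 0.00204), the cyclin-dependent kinase inhibitor Cdkn1a from 3673 and 4699 to 1516 and 1419, Plk2 by 1.84 and Sesn2 by 0.93. The falls were 5 and 7 without KD blastocyst 2.

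Of 43 DNA replication genes 9 fell and 3 rose (20.9% and 6.98%), with a list median below 0 that was 0.14 with the columns as deposited. Of 36 mitosis genes 2 fell and 6 rose (5.56% and 16.7%). Among all tested genes 13.3% fell and 14.4% rose, and the share of mitosis genes that rose is near it. Cyclin E1, Ccne1, which drives entry into S phase, fell from 3695 and 4265 to 1693 and 1293, and the helicase subunit Mcm3 fell by 0.57. Lig1, a DNA ligase, rose by 0.49. Among mitosis genes Nusap1, a spindle protein, rose from 456 and 452 to 956 and 1431, and Ccnb2 (0.85), Bub3 (0.66) and Cenpa (0.52) rose. With no mean-variance trend 0 replication genes rose and 1 fell, and 0 of the 36 mitosis genes passed. With KD blastocyst 2 left out the counts of rises and falls were 0 and 1 for replication and 1 and 0 for mitosis.

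Other chromatin regulators had calls in both directions. Of 35 remodelers outside the ISWI family 6 rose and 8 fell in KD (17.1% and 22.9%, beside 14.4% and 13.3% of all tested genes), with a list median below 0 that was 0.16 with the columns as deposited and 0.02 with equal column sums or quantile normalization. Smarca4, the main SWI/SNF ATPase of early embryos, fell from 6269.7 and 6512 to 4163 and 3942 (-0.66; -0.46 in NC), Hdac1 from 5562 and 6923 to 3392 and 3265, Mta2 of the NuRD complex by 0.71 and Smarcd2 by 1.13. Of 31 DNA and histone methylation enzymes 7 rose and 3 fell (22.6% and 9.68%). Dnmt3b rose from 1794 and 2008 to 3706 and 4201, its cofactor Dnmt3l by 0.97, the glycosylase Tdg from 353 and 282 to 943 and 1779 and Kmt2a, an H3K4 methyltransferase, from 757 and 575 to 1721 and 1779. With no mean-variance trend 0 of the 35 remodelers passed, and 2 methylation enzymes rose and 0 fell. Without KD blastocyst 2 the counts were 0 and 2 for remodelers and 4 and 0 for methylation enzymes.

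**Figure D4:**
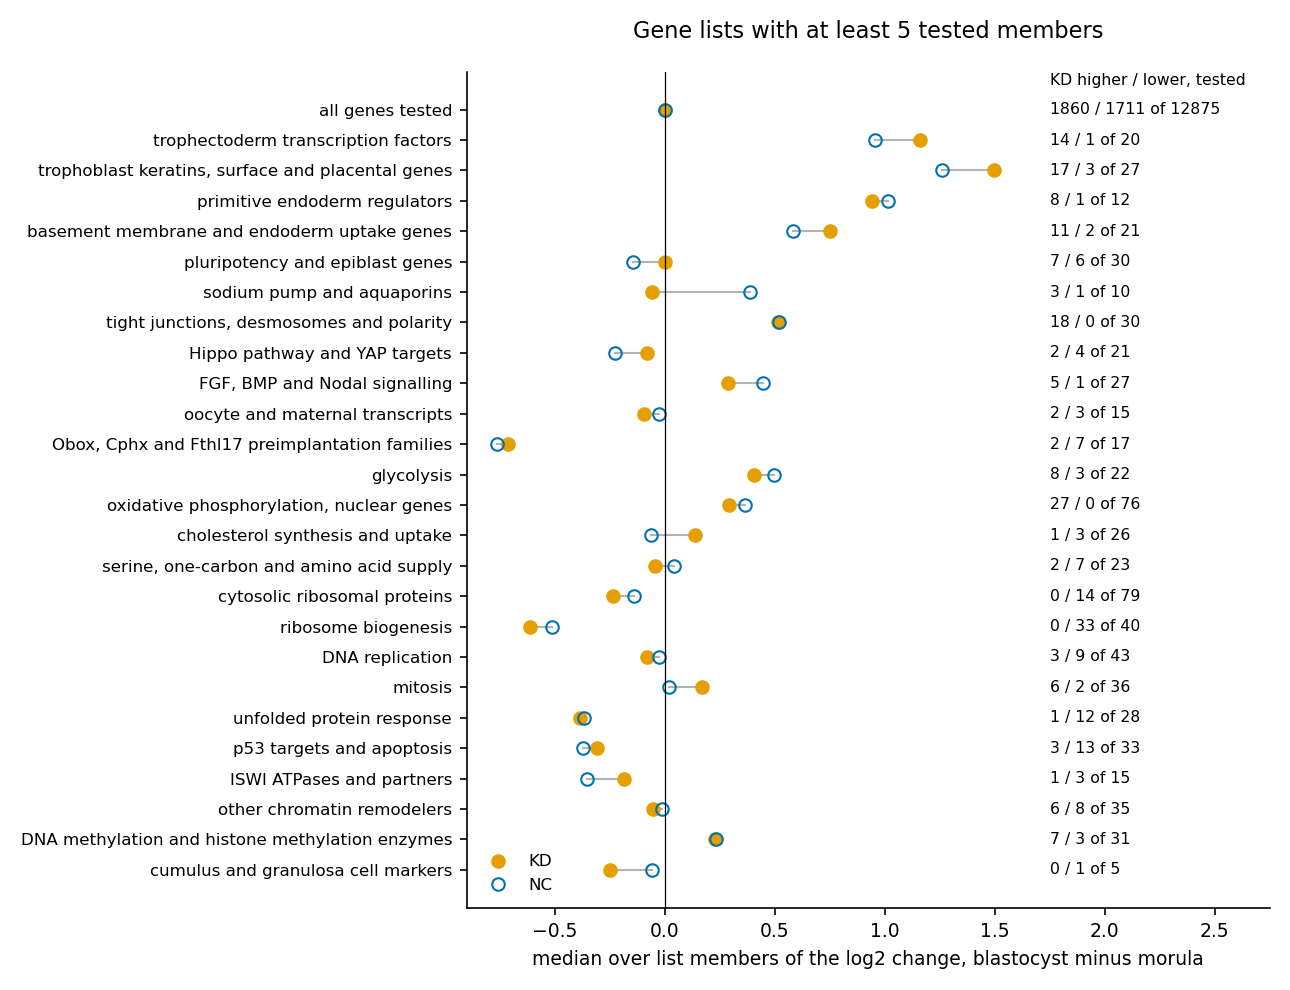
Median log2 change from morula to blastocyst (x axis) over the members of each gene list with at least 5 tested members (y axis), in KD (filled) and NC (open), with the numbers called higher and lower in KD at the right. Trophectoderm and trophoblast lists lie at 1.16 and 1.50 in KD, ribosome biogenesis at -0.61, and all genes at 0.00.

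The test of the difference itself asked which genes changed by another amount in KD than in NC. None of 12875 genes passed in limma (0% called, lowest adjusted p = 0.177). At an unadjusted p under 0.05 there were 678 genes, 339 with a higher and 339 with a lower change in KD. With a pseudocount of 0.1, 2 genes passed, and 1 without the mean-variance trend. A gene that does not pass is not shown to change alike in both groups.

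The genes with the smallest p for a higher change in KD, none of which passed, were Cphx1, Smarca5, Tmem144, Dsp and Zfp607b. Cphx1 was 0 and 2.32 in KD morulae and 90 and 58.6 in KD blastocysts, and 87 and 20.2 and then 0 in both NC blastocysts. Tmem144, a membrane protein, was 658 and 607 and then 1269.7 and 1257 in KD, and 892 and 888 and then 889 and 858 in NC (difference 1.02, adjusted p = 0.560). Its KD morulae lay below NC and its KD blastocysts above. Zfp607b, a zinc finger gene, was 29.5 and 45.3 and then 128 and 128 in KD and 61.3 and 44.6 and then 19.1 and 21.5 in NC (3.10, adjusted p = 0.560).

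Those with a lower change in KD, which did not pass either, were Cphx3, Zc3h7b, Utf1, Zmym3 and Ephb4. Utf1, an epiblast chromatin factor, was 1805 and 1744 in KD morulae and 1410.1 and 1667 in KD blastocysts, and 1270.2 and 1347 and then 2347 and 2177 in NC. It was called higher in NC and not called in KD (difference -1.003, adjusted p = 0.560). Zmym3, a zinc finger protein, was 486 and 397 and then 338 and 361 in KD and 203 and 186 and then 423 and 442 in NC (-1.48). The ephrin receptor Ephb4 was 736 and 654 and then 531 and 509 in KD and 386 and 401 and then 607 and 651 in NC (-1.09, adjusted p = 0.666). For these 3 genes KD started above NC in morulae and ended below it. Zc3h7b fell in KD, from 285 and 320.0 to 89.3 and 89.4, beside 292 and 299 and then 288 and 328 in NC (-1.81, adjusted p = 0.511).

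**Figure D5:**
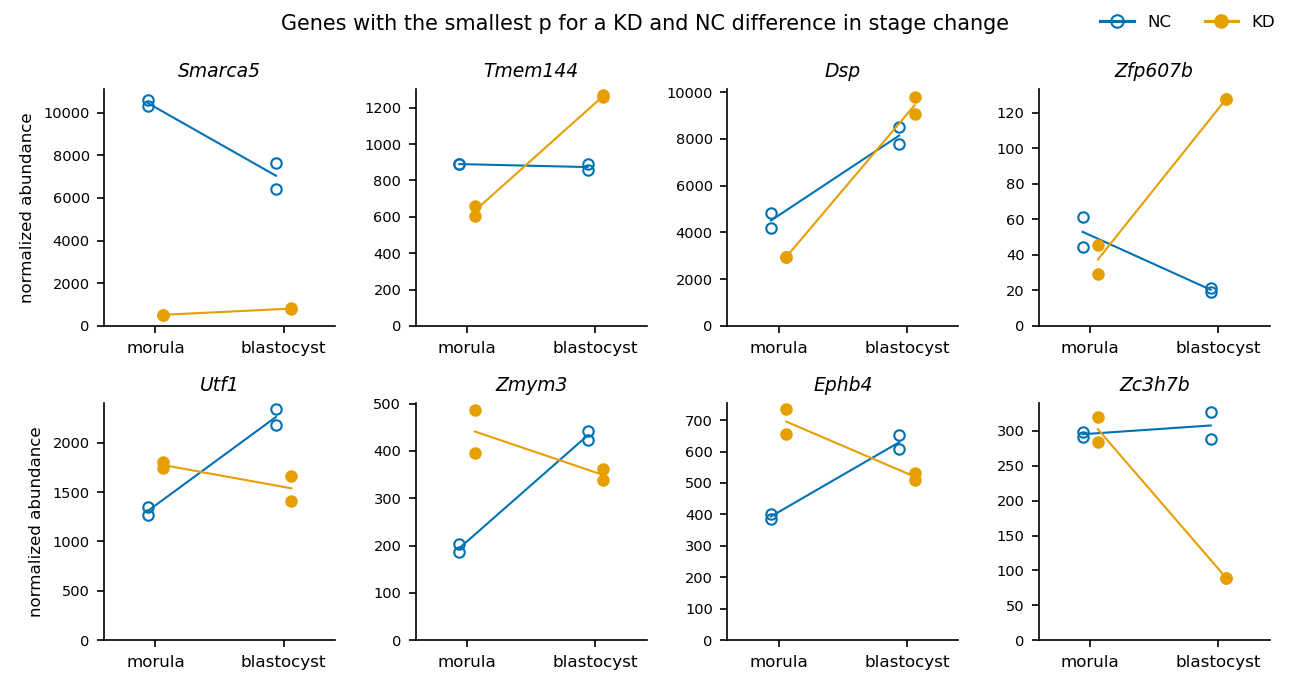
Normalized abundance (y axis, from 0, rescaled within KD and within NC) at each stage (x axis) of 8 genes with the smallest p for a difference in stage change, Cphx1 and Cphx3 left out, with 1 point per library and lines through the means. The KD and NC lines cross for Tmem144, Dsp, Zfp607b, Utf1, Zmym3, Ephb4 and Zc3h7b, and Smarca5 in KD stays below NC at both stages.

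Some genes called in NC had a small or opposite change in KD, given as a description without a test. The genes named were picked for a small share of the NC change, so their shares follow in part from that choice. Of 963 genes called at least 2-fold higher in NC, 948 were higher in KD, 764 were called higher and 39 had less than 0.25 of the NC change. Of 703 called at least 2-fold lower, 697 were lower in KD, 558 were called lower and 24 had less than 0.25 of the NC change. Among those with an NC mean of at least 100, the smallest share of the NC rise was in Chn1 (-0.48 in KD and 1.34 in NC), Usp3 (-0.34 in KD and 1.01 in NC), Zmym3 (-0.33 in KD and 1.15 in NC), Fgd1 (-0.34 in KD and 1.52 in NC) and Tns4 (-0.10 in KD and 1.20 in NC). Fgd1, an exchange factor for the GTPase CDC42, was 199 and 341 and then 192 and 222 in KD and 155 and 213 and then 551 and 494 in NC. Under the same minimum, which leaves out Cphx1, the smallest share of the NC fall was in Bbx (0.29 in KD and -1.06 in NC), Il4ra (0.18 in KD and -2.24 in NC), Prps2 (0.11 in KD and -1.66 in NC), Ttc25 (-0.09 in KD and -1.60 in NC) and Lysmd3 (-0.06 in KD and -1.07 in NC). None of these 10 passed the test of the difference, and the direction of the KD change turned with 1 library or the scaling for 8 of them.

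Changes at least 2-fold in KD with the least counterpart in NC were found in the same way, among genes with a KD mean of at least 100, which again leaves out Cphx1. Of all 1010 rises of at least 2-fold 765 were at least 2-fold in NC too, and of all 748 such falls 553. Cited2, a transcriptional coregulator, was 379.7 and 393 and then 818 and 1293 in KD and 441 and 786 and then 419 and 409 in NC. Tspan18 (1.02 in KD and -0.37 in NC), Tab3 (1.09 in KD and -0.16 in NC), the growth factor Vegfa (1.32 in KD and -0.18 in NC) and Necab3 (1.18 in KD and -0.14 in NC) also rose in KD. Kcnn4, a potassium channel, fell from 238 and 277 to 104 and 53 in KD beside 76.9 and 175 and then 191 and 132 in NC, and Arhgef2 (-2.11 in KD and 0.17 in NC), Gpsm1 (-1.87 in KD and 0.03 in NC) and Adcy6 (-1.09 in KD and -0.01 in NC) fell in KD with Zc3h7b. None of the 10 passed the test of the difference.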

How the data were processed

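Polyadenylated RNA of pooled mouse embryos was sequenced in 8 libraries, grouped by their titles. The submitters' processing notes name Salmon 0.14.1, DESeq2 and mm10, without their roles. The authors deposited 1 table per stage with a normalized signal for each gene, scaled within that table. Deposited columns summed to 17151880 and 17492766 in KD morulae and to 19247880 and 19143370 in KD blastocysts. Scaled values give no read depth, so no counting interval was computed. Each group has 2 pools, and since nothing says that they were separate collections, the p-values describe the spread of these libraries alone.

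Genes were joined by Ensembl ID (18316 in both tables), and a mean of at least 10 over each table's 4 libraries was required, which left 12875, 99.2% with a symbol. A further 776 genes reached 10 in blastocysts only and 529 in morulae only. The 4 KD columns, and apart from them the 4 NC columns, were divided by median-of-ratios factors, which differed between KD and NC by less than 0.02 within a stage. Then log2(value + 1) was tested with limma 3.58.1 in R 4.3.3 (eBayes with trend), blastocyst minus morula, with Benjamini-Hochberg adjustment. Fold changes on this scale understate those of low genes. The difference used 1 fit of all 8 libraries. All adjusted p-values are limma's. The fits were tried on simulated data with normal noise whose spread depended only on the mean level. In KD 58% of 2-fold and 93% of 4-fold changes were recovered, with 1 false call. In NC the shares were 53% and 87%, with 13 false calls. Such noise leaves out the differences in spread between genes of like level, so these shares need not hold in the real libraries.

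The members and the 28 gene lists were chosen with earlier results of these data known. The genes named come from a rule, though not every gene it takes is printed: the ISWI genes, 30 landmark genes, the 10 largest called changes in each direction with a mean of at least 100 and no overlap, up to 4 per list by p, 5 in each direction by p of the difference, and 5 in each direction with the least counterpart in the other group. Rankings skipped unnamed clone models and pseudogenes. A few genes the rule takes are not reported here. Annotation is GENCODE M21. Alternatives were another pseudocount, filter, scaling or trend, the replicate number as a block, and each library left out.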

Additional observations from a re-analysis of the deposited data

Results flagged for a closer look

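For 8 of the named genes both KD blastocysts lay on one side of both KD morulae while both NC blastocysts lay on the other side of both NC morulae. The naming rule took genes for a small p of the difference or for the least counterpart in the other group. The count of 8 follows in part from that choice. Of all tested genes 68.3% in KD and 67.4% in NC had stages without overlap, in either direction. The share with opposite directions was not counted. The difference of the log2 stage change, KD minus NC, was 10.76 for Cphx1, 1.21 for Smarca5, 1.91 for Cited2, 1.38 for Tspan18, 3.10 for Zfp607b, -1.09 for Ephb4, -1.003 for Utf1 and -1.48 for Zmym3. None passed the limma test of the difference (adjusted p = 0.177 to 0.842). Smarca5 is the gene targeted by the knockdown, and Cphx1 has near-identical copies. Groups of 2 libraries are too small for a test of single outlying libraries.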

How the results depend on the processing

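The count of genes changed in KD (3571) stayed within 1.5 times under both other pseudocounts, the stricter and the looser filter, every scaling and the fit of all 8 libraries. It was 1957 with no filter beyond a value above 0, 1166 without the mean-variance trend and 1758 with a 2-fold minimum added. The NC count (3009) was 0, 241 and 1666 under these, and the genes called in both (2236) were 0 with no filter and 157 without the trend. With no filter, limma gave NC 5407 genes at an unadjusted p under 0.05 and a lowest adjusted p of 0.0525. Leaving out each library gave 864 to 3465 for KD, 669 to 4090 for NC, 628 to 2581 for genes called in both and 0 to 2 for the difference. The difference had 2 calls with a pseudocount of 0.1 and 1 without the trend. Without 1 library an arm has 1 sample, assumed to vary like the other stage. Of the 130 named genes called in KD, 79 kept their call without KD blastocyst 2 and 61 without the trend, and none turned direction under any setting tried. With the columns as deposited 74.4% of KD calls were rises, beside 52.1% on the common scale.

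The replicate numbers are shared but nothing ties libraries of one number: deviations of same-numbered libraries correlated at -0.100 in KD. With the replicate block the KD count was 2722 and the difference had 0 calls. A crossed pairing, added after the data were seen, gave 4231 in KD and 0 for the difference. Only 2 pairs exist, so these fits do not show which pairing is right.

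Some list medians turned above 0: DNA replication 0.139, ISWI genes 0.0337, oocyte transcripts 0.121 and other remodelers 0.164 with the columns as deposited, other remodelers 0.0164 with equal sums, and oocyte transcripts 0.0138 and other remodelers 0.0219 with quantile normalization. Of single genes, none of them called in KD, those turned by scaling were Aqp3 0.023, Fgf4 0.151, Lysmd3 0.158, Tns4 0.112, Ttc25 0.129, Utf1 0.00639 (as deposited), Fgf4 0.00472, Lysmd3 0.0108 (equal sums) and Prps2 -0.0398 (quantile). Leaving out 1 library gave KD changes of -0.658 to 0.264 for Aqp3, -0.0259 to 0.597 for Bbx, -1.28 to 0.327 for Chn1, -0.727 to 0.0474 for Fgd1, -0.882 to 0.747 for Fgf4, -0.307 to 0.673 for Il4ra, -0.227 to 0.111 for Lysmd3, -0.0197 to 0.224 for Prps2, -0.478 to 0.266 for Tns4, -0.513 to 0.341 for Ttc25. The cause of these shifts was not tested. The values carry no read depth, so the spread between 2 libraries sets what could be detected.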

Other observations

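Genes that reached a mean of 10 in 1 table only were outside the fit. Of these 1305 genes 776 passed through blastocysts and 529 through morulae, so the filter itself took each through the stage where it is high, and no stage test is given for them. A gene that a table did not list was set to 0. The genes in this paragraph, other than Plac1, Aqp8 and Nlrp5, were chosen after their values were seen. The serine protease Tmprss2 was 6.17 and 1.17 in KD morulae and 519 and 1259 in KD blastocysts, and the water channel Aqp8 2.5 and 2.17 and then 198 and 383. In NC blastocysts they were 417 and 933, and 95.1 and 189. Plac1, a placental gene, went from 4.59 and 8.72 to 50.5 and 105 in KD and was 36.7 and 60.5 in NC blastocysts. Cdx1, the paralog of Cdx2, went from 3.09 and 9.42 to 172 and 291 in KD and was 49.6 and 122 in NC blastocysts. Both KD blastocysts were above both NC blastocysts for Aqp8 and Cdx1. Among genes that reached a mean of 10 in morulae only, the transporter Abcb5 was 204 and 366 in KD morulae and 16.3 and 1.23 in KD blastocysts. The maternal gene Nlrp5 was 28.7 and 47.9 in KD morulae and 10.2 and 12.8 in KD blastocysts.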
